A study of Mus musculus with 9 samples.

Results

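The genes described here are 10 feedback regulators of ERK signalling: the Sprouty genes Spry1, Spry2 and Spry4, the related Spred1 and Spred2, the MAP kinase phosphatase genes Dusp4, Dusp5 and Dusp6, and the ETS transcription factor genes Etv4 and Etv5. They were chosen by name, and all 10 were found among the 21950 genes of the deposited table. RNA was measured in MLE-12 cells, a mouse lung epithelial line derived from tumours of mice that carry the large T antigen of a virus under the promoter of surfactant protein C. Cells at passage 17 received extracellular vesicles from the lung lavage fluid of bleomycin-injured, syndecan-1 deficient mice, vesicles from bleomycin-injured wild-type mice, or regular medium, with 3 samples in each group. Bleomycin injures the lung and is given to mice as a model of fibrosis, and syndecan-1 is a heparan sulfate proteoglycan of the epithelial surface. All groups are the same line, so a change describes this line and not primary alveolar cells. Vesicles from mice without injury were not among the groups. Whether the samples of a group came from separate cultures or vesicle preparations is not given in the sources used here, so p values measure the spread between these samples, which may be technical.

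Growth factor receptors activate RAS, which passes the signal through the kinases RAF and MEK to ERK, and ERK switches on genes that restrain the same pathway. Sprouty proteins act between the receptor and RAF, Spred proteins bring the RAS inhibitor neurofibromin to the membrane, and the phosphatases remove the activating phosphates from ERK, Dusp4 and Dusp5 in the nucleus and Dusp6 in the cytoplasm. Etv4 and Etv5 are transcription factors of the PEA3 group of the ETS family, induced by fibroblast growth factor signals at the tips of the growing airways in the mouse. RNA levels of these genes are commonly read as markers of ERK activity, which was not itself measured here.

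Upstream sequences are shown for the Sprouty genes that rose with both kinds of vesicle, for Etv5, which fell with both, and for Dusp5, which had the rarest motif. RefSeq start windows on build GRCm38.p6 were matched for 7 of the 10 genes, in 8 windows because Etv5 has more than 1 start, and the first Etv5 window is printed. Each sequence is the 250 bases before the RefSeq start, 5′ to 3′ on the gene's strand. RefSeq starts can differ from the GENCODE gene bounds given below, and the Etv5 and Dusp5 windows reach into those bounds. Capitals mark GC boxes (GGGCGG on either strand) and CArG boxes, the core of the serum response element to which the serum response factor binds.
Spry2 (chr14:105896820-105897069, minus strand): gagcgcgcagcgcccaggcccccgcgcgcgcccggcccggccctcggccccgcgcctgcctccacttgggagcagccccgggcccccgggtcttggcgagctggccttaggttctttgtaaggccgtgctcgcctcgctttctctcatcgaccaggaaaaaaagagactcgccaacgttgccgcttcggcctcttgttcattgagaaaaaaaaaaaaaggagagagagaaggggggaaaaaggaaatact
Spry1 (chr3:37639697-37639946, plus strand): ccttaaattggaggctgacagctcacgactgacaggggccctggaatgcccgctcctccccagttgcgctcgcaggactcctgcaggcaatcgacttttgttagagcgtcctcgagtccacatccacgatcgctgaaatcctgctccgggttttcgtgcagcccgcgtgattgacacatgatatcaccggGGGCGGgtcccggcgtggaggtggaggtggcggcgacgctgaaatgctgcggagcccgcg
Etv5 (chr16:22439571-22439820, minus strand): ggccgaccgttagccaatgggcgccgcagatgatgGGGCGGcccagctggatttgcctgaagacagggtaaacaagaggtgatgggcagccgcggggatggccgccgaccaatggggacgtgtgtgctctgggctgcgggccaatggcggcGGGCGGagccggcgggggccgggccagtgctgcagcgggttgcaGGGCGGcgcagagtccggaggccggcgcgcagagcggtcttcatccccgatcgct
Dusp5 (chr19:53528895-53529144, plus strand): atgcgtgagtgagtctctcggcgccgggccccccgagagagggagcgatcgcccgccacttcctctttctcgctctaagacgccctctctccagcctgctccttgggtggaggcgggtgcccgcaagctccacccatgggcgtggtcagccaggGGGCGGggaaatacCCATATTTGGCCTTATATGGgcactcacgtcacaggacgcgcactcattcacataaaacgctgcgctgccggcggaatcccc

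The Dusp5 window held 2 CArG boxes, which lay next to each other, 72 and 62 bases before the start, and 1 GC box. Of all 32851 windows 1.47% held a CArG box, and among the 8 windows of these genes it was found in 1. GC boxes were found in 5 of the 8 windows, against 32.7% of all windows. The first Etv5 window held 3 of them, and the windows of Spry2 and Dusp6 and the second Etv5 window held none. The 8 windows had 56% to 71.2% G and C, against a median of 52.4% over all windows. The part of this in the GC box count was not tested. The sequence CCGGAAG, 1 form of ETS site, and the AP-1 site TGACTCA were found in 0 of the 8 windows, against 6.91% and 4.46% of all windows. Shorter or other forms of ETS site were not searched, so their absence is not shown. The CArG box reads nearly alike on both strands and was counted once per position. These matches describe letters in the windows and not binding.

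Values are RPKM as deposited, reads scaled by gene length and library total, and can be compared between genes. Library totals recovered from the values were between 24353257 and 33558660 reads, and the reads behind a single value of these genes ran from 36 to 6334. Tests were made with limma on log2(RPKM + 1) over all 11125 genes with a mean of at least 1 RPKM, and a gene is called at a Benjamini-Hochberg adjusted p under 0.05. Spry4 lay under that filter, so 9 of the 10 genes were tested. Fold changes on this scale understate the change of low genes, and errors after a fold change are standard errors. The line was checked against its markers. Sftpb, Sftpc, Nkx2-1, Krt8 and Krt19 were present in every library, while Epcam was listed at 0 in all 9 and Cdh1 was 0.12 to 0.183 RPKM with deficient vesicles, 0.137 to 0.189 with wild-type vesicles and 1.34 to 1.403 in control. The 12 epithelial and alveolar type 2 markers, of which 7 had a mean of at least 1 RPKM, summed to 485 to 508 RPKM with deficient vesicles, 476 to 545 with wild-type vesicles and 1091 to 1137 in control. Most of that sum was keratin: Krt19 stood at 191 ± 13 RPKM with deficient vesicles, 186 ± 23 with wild-type vesicles and 712 ± 18 in control, and Krt8 was also called lower with both. The keratin gene Krt18 was low and not tested. It was higher on average with vesicles, at 0.72, 0.56 and 0.30 RPKM in the same order. The alveolar type 2 markers Sftpa1, Sftpb, Sftpc, Nkx2-1 and Abca3 were called higher with both, as in Sftpb at 60.6 ± 3.8, 62.4 ± 7.6 and 13.6 ± 1.6 RPKM in the same order (SD, n = 3 each). Lamp3 and Slc34a2, also type 2 markers, lay near 0, were not tested and were lower on average with vesicles. Means in that order were 0.0033, 0.0038 and 0.011 RPKM for Lamp3 and 0.020, 0.036 and 0.042 for Slc34a2. Of the fibroblast markers, Dcn and Col1a1 were abundant, and the 10 fibroblast and endothelial markers summed to 792 to 917 RPKM with deficient vesicles, 751 to 894 with wild-type vesicles and 273 to 282 in control. Their members went opposite ways. Dcn stood at 787 ± 67, 787 ± 78 and 195 ± 4.4 RPKM in the same order and was called higher with both. Col1a1 stood at 45.7 ± 2.4, 46.5 ± 1.5 and 79.3 ± 0.44 RPKM and was called lower with both. Pdgfra was also called higher, with log2 fold changes of 1.603 with deficient vesicles and 1.516 with wild-type vesicles. The fibroblast markers Col1a2, Col3a1 and Pdgfrb lay under the filter on low values and were not tested. The 15 immune markers summed to 2.76 to 3.37 RPKM with deficient vesicles, 2.20 to 2.61 with wild-type vesicles and 2.89 to 3.02 in control. Marco, Siglecf, Chil3 and Ly6g were at 0 in every library. The part of these markers in the results below was not tested. On the second principal component of all tested genes, which held 10.2% of the variance, the deficient libraries scored -6.82, -13.3 and -9.71, and of the wild-type libraries replicates 1 and 2 scored 14.4 and 17.2 while replicate 3 scored -2.41.

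With vesicles of either donor the 10 regulators divided. Of the inhibitors that act upstream of ERK, Spry1, Spry2 and Spred1 rose with both kinds of vesicle. Spry4 was lower with both in the only fit that tested it, made without a filter, and no alternative was run for it. Spred2 rose with wild-type vesicles, and its smaller call with deficient vesicles did not hold in 9 of 18 alternatives. Dusp4 and Etv5 fell with both, and Dusp6 and Etv4 were not called. With syndecan-1 deficient vesicles 6 of the 9 tested genes were called against control, 4 higher (Spry1, Spry2, Spred1, Spred2) and 2 lower (Dusp4, Etv5), where 75.2% of all tested genes were called, 48.8% higher and 26.5% lower. With wild-type vesicles 7 of 9 were called, the same 4 higher and Dusp4, Dusp5 and Etv5 lower, where 75.1% of all tested genes were called, 45% higher and 30% lower. The samples did not overlap with control for 6 of the 9 genes with deficient vesicles, where the share of all tested genes was 81%, and for 7 of 9 with wild-type vesicles, where it was 78.2%. These shares lie near the background, so the counts are not particular to these genes, and the size and direction of each change are described below. The median log2 fold change was 0.02 over the 9 genes with deficient vesicles and 0.13 with wild-type vesicles, against 0.13 and 0.09 over all tested genes. The vesicle groups were compared with the same 3 controls. The all-gene balance depended on scaling: after median-of-ratios scaling 50.1% of the called genes were higher with deficient vesicles and 50.03% with wild-type vesicles, against 64.8% and 60% as deposited, and after scaling without mitochondrial genes 74.9% and 69.4%. The median of all genes with deficient vesicles was then -0.003 and 0.24, against 0.13 as deposited, so changes near that size are not read as changes of a single gene.

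**Figure D1:**
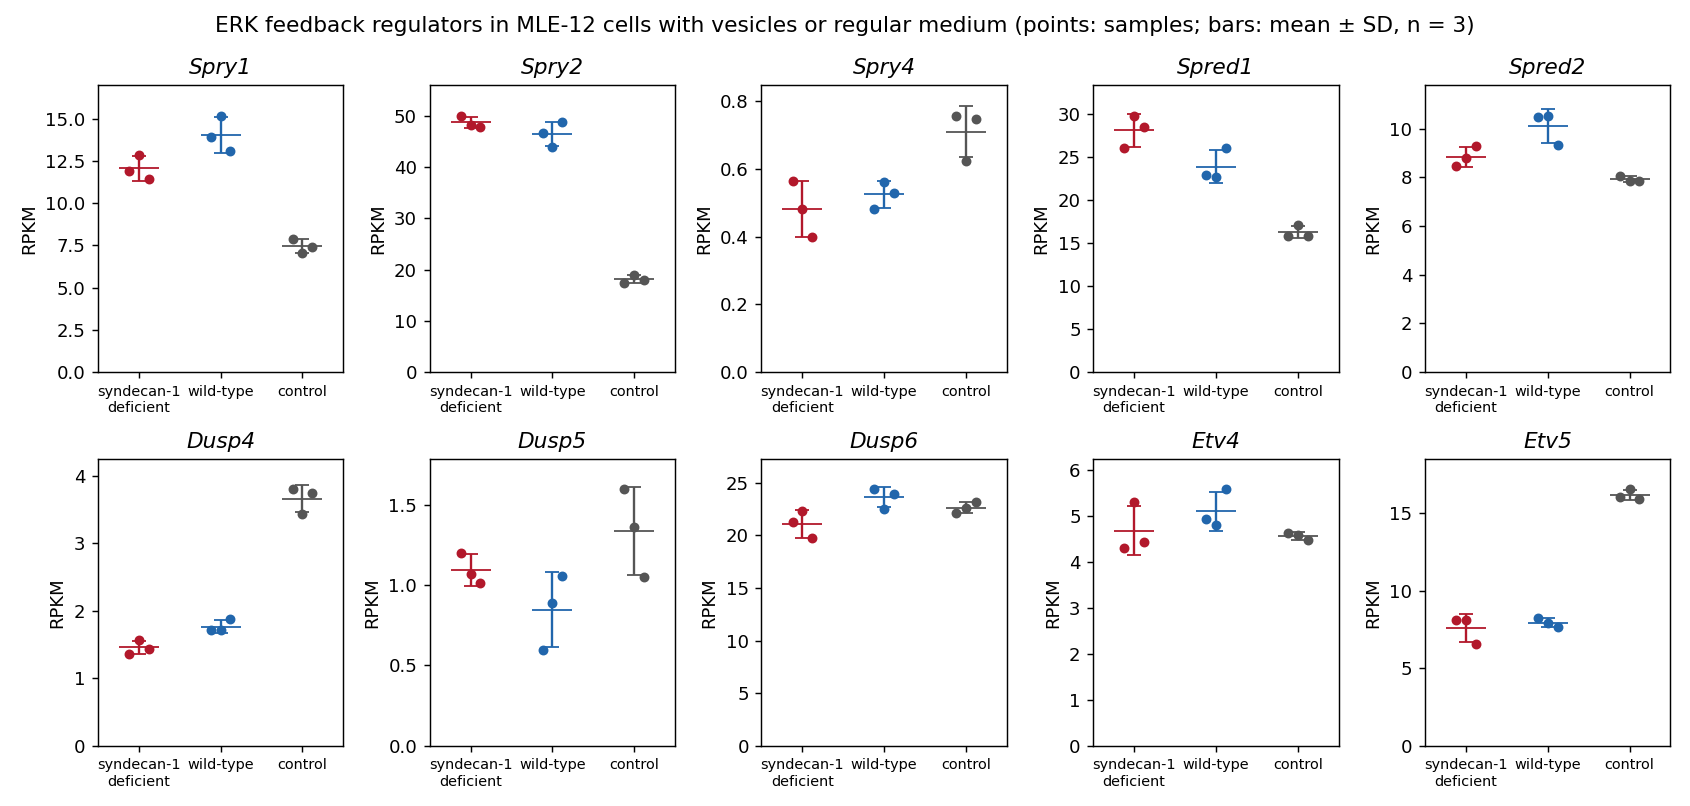
RPKM of each of the 10 genes (vertical axes start at 0) in cells with syndecan-1 deficient vesicles, wild-type vesicles or regular medium, with points for samples and bars for the mean ± SD of 3 samples. Spry2 stands between 43.98 and 50.05 RPKM in the vesicle-treated samples and between 17.4 and 18.9 RPKM in control, Etv5 and Dusp4 lie lower with vesicles than in control, and Dusp6 overlaps.

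Spry2 had the largest rise of the 10. It lies on chromosome 14 at 105891947 to 105896819 (GRCm38, minus strand, ENSMUSG00000022114) and encodes a Sprouty protein that limits branching in the developing mouse lung. Spry2 had 50.05, 48.3 and 47.9 RPKM with deficient vesicles, 46.6, 44.0 and 48.8 with wild-type vesicles, and 17.4, 18.9 and 17.9 in control. Every vesicle-treated sample was above every control, and the vesicle groups overlapped. The log2 fold change was 1.38 ± 0.049 with deficient vesicles (limma adjusted p = 6.61e-09) and 1.31 ± 0.049 with wild-type vesicles (adjusted p = 8.54e-09), or 2.69 and 2.57 times the control mean. Of the 11125 tested genes 196 and 235 had a larger positive change. Both calls held under all 18 alternatives.

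Spry1, on chromosome 3 at 37639947 to 37644598 (plus strand, ENSMUSG00000037211), encodes another Sprouty protein. It had 11.9, 12.9 and 11.4 RPKM with deficient vesicles, 13.9, 15.2 and 13.1 with wild-type vesicles, and 7.88, 7.07 and 7.41 in control. The 3 groups did not overlap, with the wild-type group highest. Spry1 rose by a log2 fold change of 0.63 ± 0.063 with deficient vesicles (limma adjusted p = 7.13e-06) and 0.83 ± 0.063 with wild-type vesicles (adjusted p = 8.77e-07). An unclassified annotated transcript, Gm42922, overlaps its exons on the opposite strand, and since the strand setting of the counting is not given in the sources used here, its reads cannot be told apart from those of Spry1.

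Spry4 was the lowest of the 10, with 54 to 104 reads in a library. It had 0.564, 0.482 and 0.399 RPKM with deficient vesicles, 0.483, 0.563 and 0.530 with wild-type vesicles, and 0.758, 0.624 and 0.749 in control. The control samples lay above all vesicle-treated ones, in the opposite order to Spry1 and Spry2. In a fit without a filter on low values Spry4 fell, by 0.21 ± 0.048 on the log2 scale with deficient vesicles (limma adjusted p = 0.00587) and by 0.16 ± 0.048 with wild-type vesicles (adjusted p = 0.0187). Other scalings and left-out libraries were not tried for Spry4.

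Spred1, on chromosome 2 at 117121374 to 117182279 (plus strand, ENSMUSG00000027351), had the most reads of the 10 genes. It had 26.0, 29.8 and 28.5 RPKM with deficient vesicles, 22.9, 22.6 and 26.1 with wild-type vesicles, and 15.9, 17.1 and 15.9 in control. Both vesicle groups were above control, and they touched each other, with wild-type replicate 3 just above the lowest deficient sample. Spred1 rose by 0.75 ± 0.066 with deficient vesicles (limma adjusted p = 2.45e-06) and by 0.52 ± 0.066 with wild-type vesicles (adjusted p = 3.7e-05) on the log2 scale.

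Spred2, on chromosome 11 at 19924375 to 20024026 (plus strand, ENSMUSG00000045671), changed least among the called genes. It had 8.45, 8.78 and 9.26 RPKM with deficient vesicles, 10.5, 10.5 and 9.31 with wild-type vesicles, and 8.07, 7.83 and 7.86 in control. The groups did not overlap. Spred2 rose with wild-type vesicles by 0.32 ± 0.053 on the log2 scale (limma adjusted p = 0.000323). With deficient vesicles the difference was 0.14 ± 0.053 (adjusted p = 0.0351), close to the median of all tested genes. It was lost in 9 of the 18 alternatives, among them leaving out any single control, and the difference was 0.001 after median-of-ratios scaling and -0.05 after quantile normalization. The third gene of the group, Spred3, from the wider list of negative regulators, rose as well, to 2.68 ± 0.29 RPKM with deficient vesicles and 3.02 ± 0.067 with wild-type vesicles, against 1.27 ± 0.13 in control (SD, n = 3 each).

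**Figure D2:**
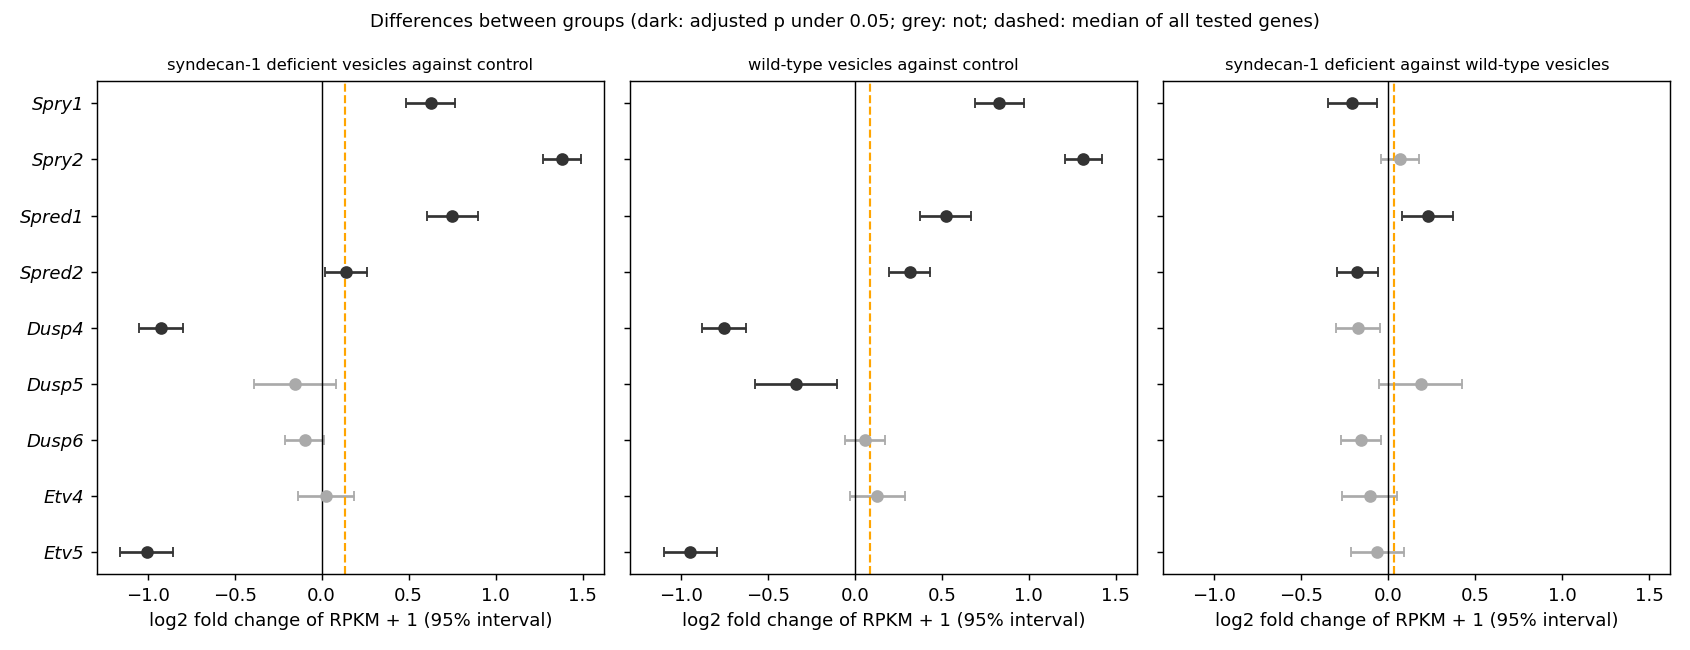
Log2 fold changes of RPKM + 1 (horizontal axis) of the 9 tested genes with 95% intervals, for deficient vesicles against control, wild-type vesicles against control, and deficient against wild-type vesicles. The dashed line is the median of all tested genes (0.13, 0.09 and 0.04), and the differences between the vesicle groups stay between -0.20 and 0.23.

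Among the phosphatases the genes went apart. Dusp4, on chromosome 8 at 34807297 to 34819894 (plus strand, ENSMUSG00000031530), encodes a nuclear phosphatase of ERK and other MAP kinases. It had 1.37, 1.56 and 1.44 RPKM with deficient vesicles, 1.71, 1.71 and 1.87 with wild-type vesicles, and 3.79, 3.43 and 3.75 in control. The 3 groups did not overlap, and control was highest. Dusp4 fell by 0.92 ± 0.056 with deficient vesicles (limma adjusted p = 1.68e-07) and by 0.75 ± 0.056 with wild-type vesicles (adjusted p = 7.32e-07) on the log2 scale, to 0.398 and 0.483 of the control mean. Both calls held under all 17 alternatives that tested Dusp4, which lies under the filter at 5 RPKM.

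Dusp6, on chromosome 10 at 99263231 to 99267489 (plus strand, ENSMUSG00000019960), encodes the cytoplasmic phosphatase that acts on ERK. It was the highest of the 10 genes in control. Dusp6 had 21.2, 22.3 and 19.7 RPKM with deficient vesicles, 24.3, 22.5 and 23.9 with wild-type vesicles, and 22.1, 22.6 and 23.1 in control. Each vesicle group overlapped control. The log2 difference was -0.10 with deficient vesicles (95% interval -0.21 to 0.02, limma adjusted p = 0.105) and 0.06 with wild-type vesicles (-0.06 to 0.17, adjusted p = 0.324). The call depended on the scaling and on 1 library. With deficient vesicles Dusp6 was called lower after median-of-ratios scaling (-0.25, adjusted p = 0.000902), after quantile normalization (-0.16, adjusted p = 0.0145) and without deficient replicate 2 (-0.14, adjusted p = 0.0368). With wild-type vesicles it was called higher after scaling without mitochondrial genes (0.16, adjusted p = 0.0195).

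Dusp5, on chromosome 19 at 53529109 to 53542431 (plus strand, ENSMUSG00000034765), encodes a nuclear phosphatase specific for ERK, and its values rest on 36 to 118 reads. It had 1.202, 1.07 and 1.01 RPKM with deficient vesicles, 0.598, 0.886 and 1.06 with wild-type vesicles, and 1.60, 1.36 and 1.05 in control. All groups overlapped, and control replicate 3 lay within the range of the wild-type samples. The call with wild-type vesicles, a log2 difference of -0.34 ± 0.11 (limma adjusted p = 0.0142), was lost without control replicate 1 (-0.26, adjusted p = 0.0625), without wild-type replicate 1 (-0.24, adjusted p = 0.0570), and without wild-type replicates 1 and 2 (-0.17, adjusted p = 0.243). With deficient vesicles the difference was -0.15 ± 0.11 (adjusted p = 0.216), and it was called under quantile normalization (-0.51, adjusted p = 0.00125). An antisense gene overlaps exons of Dusp5, so its reads carry the same uncertainty as those of Spry1.

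Of the other MAP kinase phosphatases, 6 of 8 passed the filter on low values. With deficient vesicles 2 were higher and 2 lower, and with wild-type vesicles 2 higher and 1 lower. Dusp1, an immediate early gene whose product acts on p38 and JNK as well as ERK, rose to 18.9 ± 1.4 RPKM with deficient vesicles and 19.0 ± 1.7 with wild-type vesicles, against 6.73 ± 0.21 in control (SD, n = 3 each). Its log2 fold changes were 1.36 ± 0.069 and 1.37 ± 0.069 (limma adjusted p = 4.86e-08 and 4.45e-08), the opposite direction to Dusp4. Dusp14 fell by 0.34 and 0.35 on the log2 scale.

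Both Etv genes belong to the PEA3 group, and they differed. Etv5, on chromosome 16 at 22381309 to 22439719 (minus strand, ENSMUSG00000013089), is needed in the mouse to maintain alveolar type 2 cells. It had 8.11, 8.07 and 6.54 RPKM with deficient vesicles, 8.22, 7.89 and 7.63 with wild-type vesicles, and 16.02, 16.5 and 15.9 in control. Every vesicle-treated sample was below every control, and the vesicle groups overlapped. Etv5 fell by 1.01 ± 0.069 with deficient vesicles (limma adjusted p = 4.09e-07) and by 0.94 ± 0.069 with wild-type vesicles (adjusted p = 6.58e-07), to 0.469 and 0.490 of the control mean, and the calls held under all 18 alternatives. Of its exonic 50-base sequences 24.5% also occur in the annotated gene Gm4798, so the level of Etv5 is uncertain to the extent that reads were shared.

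Etv4, on chromosome 11 at 101769742 to 101785371 (minus strand, ENSMUSG00000017724), had 4.31, 5.30 and 4.43 RPKM with deficient vesicles, 4.93, 4.80 and 5.58 with wild-type vesicles, and 4.64, 4.59 and 4.47 in control. The deficient group overlapped control, and the wild-type samples lay above it. The log2 difference was 0.02 with deficient vesicles (95% interval -0.13 to 0.18, limma adjusted p = 0.767) and 0.13 with wild-type vesicles (-0.03 to 0.29, adjusted p = 0.122). It turned to a called fall of -0.22 with deficient vesicles under quantile normalization (adjusted p = 0.0112), and to a called rise with wild-type vesicles after scaling without mitochondrial genes and without wild-type replicates 1 and 2. The remaining gene of the PEA3 group, Etv1, was at 5.43 ± 0.75 RPKM with deficient vesicles and 5.47 ± 0.38 with wild-type vesicles, against 0.384 ± 0.048 in control (SD, n = 3 each). Etv1 rose by log2 fold changes of 2.21 ± 0.083 and 2.22 ± 0.083 (adjusted p = 8.02e-09 and 8.54e-09), while Etv5 fell.

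The order of the levels differed between the groups. In control Dusp6 was highest at 22.6 ± 0.52 RPKM, followed by Spry2 at 18.1 ± 0.77, Spred1 at 16.3 ± 0.69 and Etv5 at 16.1 ± 0.31 (SD, n = 3), and the ranges of Spred1 and Etv5 overlapped. With deficient vesicles the order was Spry2 at 48.7 ± 1.1, Spred1 at 28.1 ± 1.9, Dusp6 at 21.1 ± 1.3 and Spry1 at 12.1 ± 0.73, with no overlap between neighbours. With wild-type vesicles it was Spry2 at 46.5 ± 2.4, Spred1 at 23.9 ± 1.9, Dusp6 at 23.6 ± 0.95 and Spry1 at 14.1 ± 1.1, where Spred1 and Dusp6 overlapped. Etv4, Dusp4, Dusp5 and Spry4 held the 4 lowest places, in that order, in all 3 groups. The ratio of Spry2 to Spry1 RPKM was 4.20, 3.76 and 4.20 with deficient vesicles, 3.35, 2.897 and 3.735 with wild-type vesicles, and 2.21, 2.68 and 2.42 in control. The ratio of Dusp6 to Dusp4 was 15.5, 14.3 and 13.7 with deficient vesicles, 14.3, 13.1 and 12.8 with wild-type vesicles, and 5.82, 6.60 and 6.17 in control, without overlap of either vesicle group with control in both ratios.

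**Figure D3:**
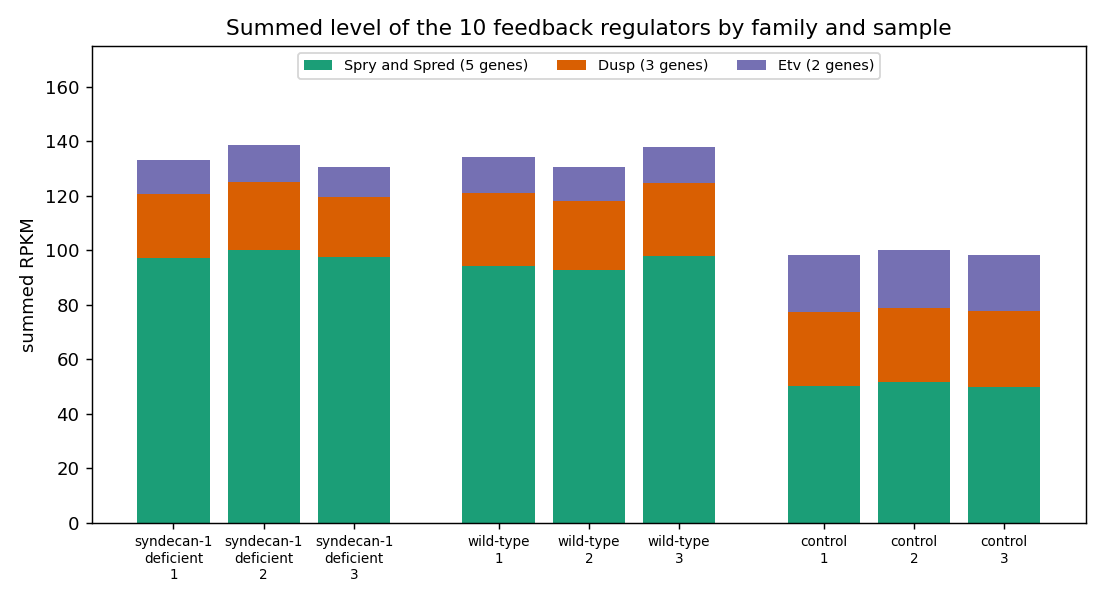
Summed RPKM (vertical axis from 0) of the 5 Spry and Spred genes, the 3 Dusp genes and the 2 Etv genes in each of the 9 samples. The 10 genes together sum to 131 to 139 RPKM with deficient vesicles, 131 to 138 with wild-type vesicles and 98.1 to 100.04 in control.

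Summed over the families, the Spry and Spred genes stood at 98.2 ± 1.7 RPKM with deficient vesicles and 95.04 ± 2.6 with wild-type vesicles, against 50.45 ± 0.95 in control (SD, n = 3 each). They made up 73.3 ± 1.2%, 70.8 ± 0.40% and 51.1 ± 0.40% of the sum of the 10 genes in the same order. The Etv pair stood at 12.3 ± 1.2, 13.02 ± 0.28 and 20.7 ± 0.35 RPKM. The Dusp genes, of which Dusp6 is the bulk, stood at 23.6 ± 1.4, 26.2 ± 0.93 and 27.6 ± 0.29 RPKM. These sums are given as a description, with no test.

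Deficient and wild-type vesicles were set against each other to ask whether the donor's syndecan-1 matters for these genes. The differences were small, and 3 of the 9 tested genes were called, where 18.4% of all tested genes were called, 12.9% higher and 5.43% lower with deficient vesicles. Spred1 was higher, by 0.23 ± 0.066 on the log2 scale (limma adjusted p = 0.0416, 28.1 ± 1.9 against 23.9 ± 1.9 RPKM). Spry1 was lower, by -0.20 ± 0.063 (adjusted p = 0.0498, 12.1 ± 0.73 against 14.1 ± 1.1 RPKM), as was Spred2, by -0.18 ± 0.053 (adjusted p = 0.0474, 8.83 ± 0.41 against 10.1 ± 0.69 RPKM; SD, n = 3 each). The groups did not overlap for Spry1, Spred2, Dusp4 and Dusp6, 4 of the 9 tested genes, against 32.3% of all tested genes. Over all genes the same comparison called 2042 genes, and 0 without wild-type replicate 1, 0 without wild-type replicate 2 and 0 without deficient replicate 2. None of the 3 calls of the regulators held without wild-type replicates 1 and 2, the libraries that stand apart, where the differences were 0.10 for Spred1 (adjusted p = 0.674), -0.11 for Spry1 (adjusted p = 0.647) and -0.07 for Spred2 (adjusted p = 0.721), with 1 wild-type sample that is assumed to vary like the others. Wild-type replicate 3 was nearest to the deficient samples among the wild-type samples for all 3 genes, as it is on the second principal component. Leaving out any single control also took the number of called genes among the 9 to 0, without moving the differences themselves.

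For the other 6 genes the difference between deficient and wild-type vesicles was not called. The interval of the difference was -0.04 to 0.18 for Spry2, -0.21 to 0.09 for Etv5, -0.26 to 0.05 for Etv4 and -0.05 to 0.42 for Dusp5 on the log2 scale. Dusp4 at -0.17 ± 0.056 (limma adjusted p = 0.0563) and Dusp6 at -0.16 ± 0.051 (adjusted p = 0.0573) lay just beyond the threshold. Both were called lower after median-of-ratios scaling (adjusted p = 0.0382 and 0.0311) and after quantile normalization (adjusted p = 0.0263 and 0.0308). For Spry4 the difference was -0.04 ± 0.048 in the fit without a filter (adjusted p = 0.613).

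**Figure D4:**
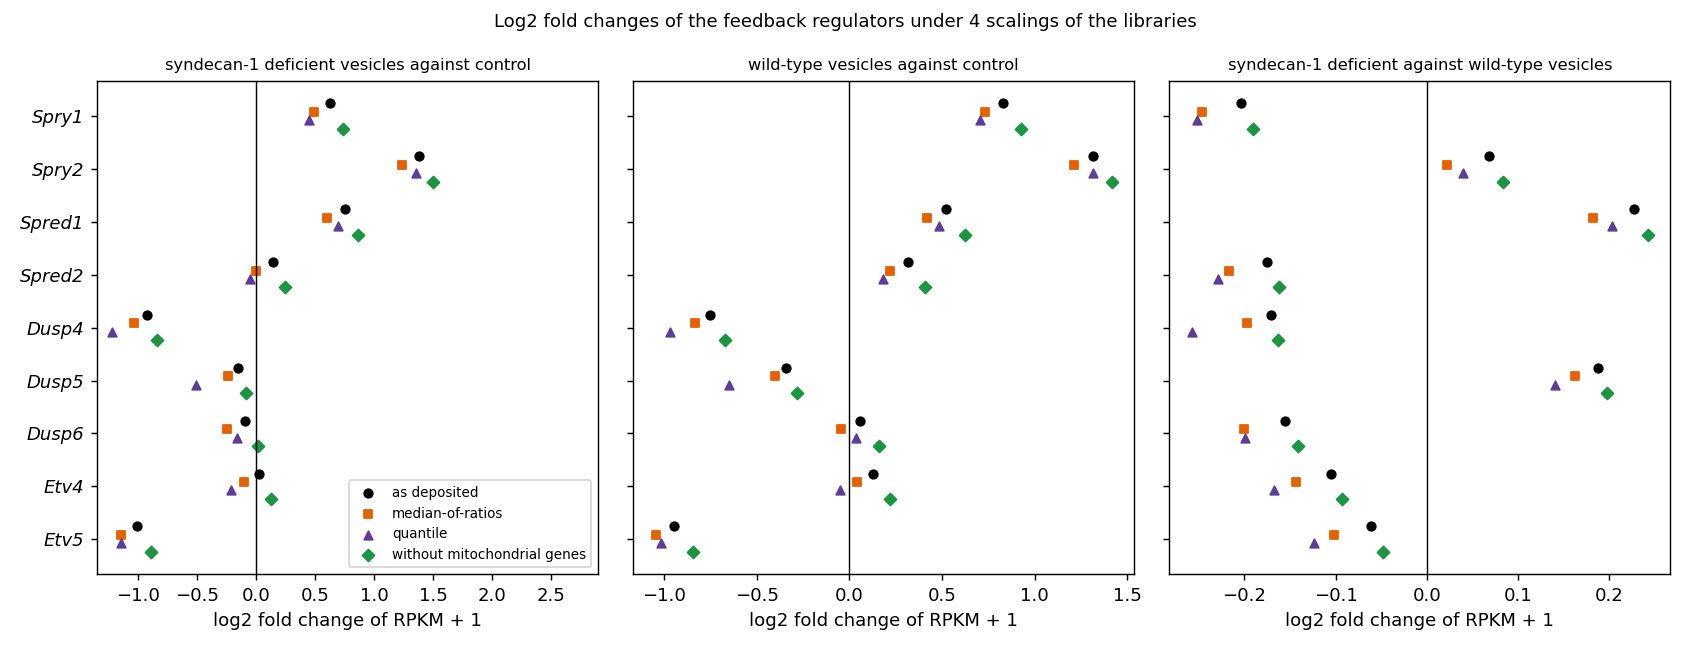
Log2 fold changes of RPKM + 1 (horizontal axes, with a scale of their own in each panel) of the 9 tested genes as deposited and under 3 other scalings of the libraries, for the 3 comparisons. The changes of Spry1, Spry2, Spred1, Dusp4 and Etv5 against control keep their sign under all 4, while Spred2, Dusp6 and Etv4 with deficient vesicles and Dusp6 and Etv4 with wild-type vesicles cross 0.

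The wider RAS and ERK pathway was described with lists of 76 genes, of which 69 passed the filter on low values. With deficient vesicles 32 were higher and 20 lower, together 75.4%, against 75.2% of all tested genes. With wild-type vesicles 32 were higher and 23 lower, together 79.7%, against 75.1%. Their median log2 fold changes were 0.08 and 0.07.

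Upstream of RAF, 14 adaptor and RAS genes were tested. With deficient vesicles 6 were higher and 3 lower, and with wild-type vesicles 6 higher and 7 lower. Gab2, a docking protein of activated receptors, rose to 4.86 ± 0.097 RPKM with deficient vesicles and 5.24 ± 0.28 with wild-type vesicles, against 2.18 ± 0.060 in control, and the RAS relative Mras fell to 5.50 ± 0.12 and 5.80 ± 0.27, against 9.51 ± 0.22 (SD, n = 3 each). Of the 14 cascade kinases and scaffolds, 5 were higher and 4 lower with deficient vesicles, and 5 higher and 5 lower with wild-type vesicles. The ERK1 gene Mapk3 rose to 109 ± 2.9 and 109.9 ± 5.9 RPKM in the same order, against 83.4 ± 1.4 in control. Araf, a RAF kinase, rose to 13.98 ± 0.48 and 14.08 ± 0.60, against 9.79 ± 0.31 RPKM. Pea15a, which holds ERK in the cytoplasm, rose to 33.9 ± 0.89 RPKM with deficient vesicles and 32.8 ± 1.1 with wild-type vesicles, against 24.5 ± 0.47 in control. Lamtor3, a MEK scaffold, stood at 23.3 ± 1.6 RPKM with deficient vesicles and 29.3 ± 3.4 with wild-type vesicles, against 13.6 ± 0.67 in control.

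Of 15 tested genes among the other negative regulators, 10 were higher and 4 lower with deficient vesicles, and 9 higher and 4 lower with wild-type vesicles. Cic, a repressor of Etv genes that ERK inactivates, rose to 30.3 ± 1.0 and 30.5 ± 0.94 RPKM, against 15.7 ± 0.17 in control, with log2 fold changes of 0.91 ± 0.041 in both (limma adjusted p = 2.19e-08 and 2.11e-08). Cblb, a ubiquitin ligase that limits receptor signals, rose to 11.4 ± 0.91 RPKM with deficient vesicles and 10.4 ± 0.52 with wild-type vesicles. Control was at 5.75 ± 0.28 RPKM. Lrig3 rose to 3.11 ± 0.25 RPKM with deficient vesicles and 3.47 ± 0.17 with wild-type vesicles, against 1.53 ± 0.049 in control. The 4 called lower were Errfi1, Lrig1, Rasal2 and Pebp1, the same with both kinds of vesicle. Errfi1 fell to 4.39 ± 0.34 RPKM with deficient vesicles and 4.80 ± 0.21 with wild-type vesicles, against 8.30 ± 0.32 in control. Lrig1 fell to 5.12 ± 0.79 and 5.10 ± 0.30 RPKM, against 7.06 ± 0.13. Of 16 tested ERK-responsive transcription factor genes, 8 were higher and 4 lower with deficient vesicles, and 9 higher and 3 lower with wild-type vesicles. Egr1, an immediate early gene, rose to 5.91 ± 0.82 and 6.79 ± 0.39 RPKM, against 1.89 ± 0.075 in control (SD, n = 3 each). Fosl1, Myc and Ier3 were called lower with both kinds of vesicle, and Srf with deficient vesicles only. Log2 fold changes with deficient and wild-type vesicles were -1.02 and -0.76 for Fosl1, -0.91 and -0.55 for Myc, and -0.59 and -0.58 for Ier3.

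**Figure D5:**
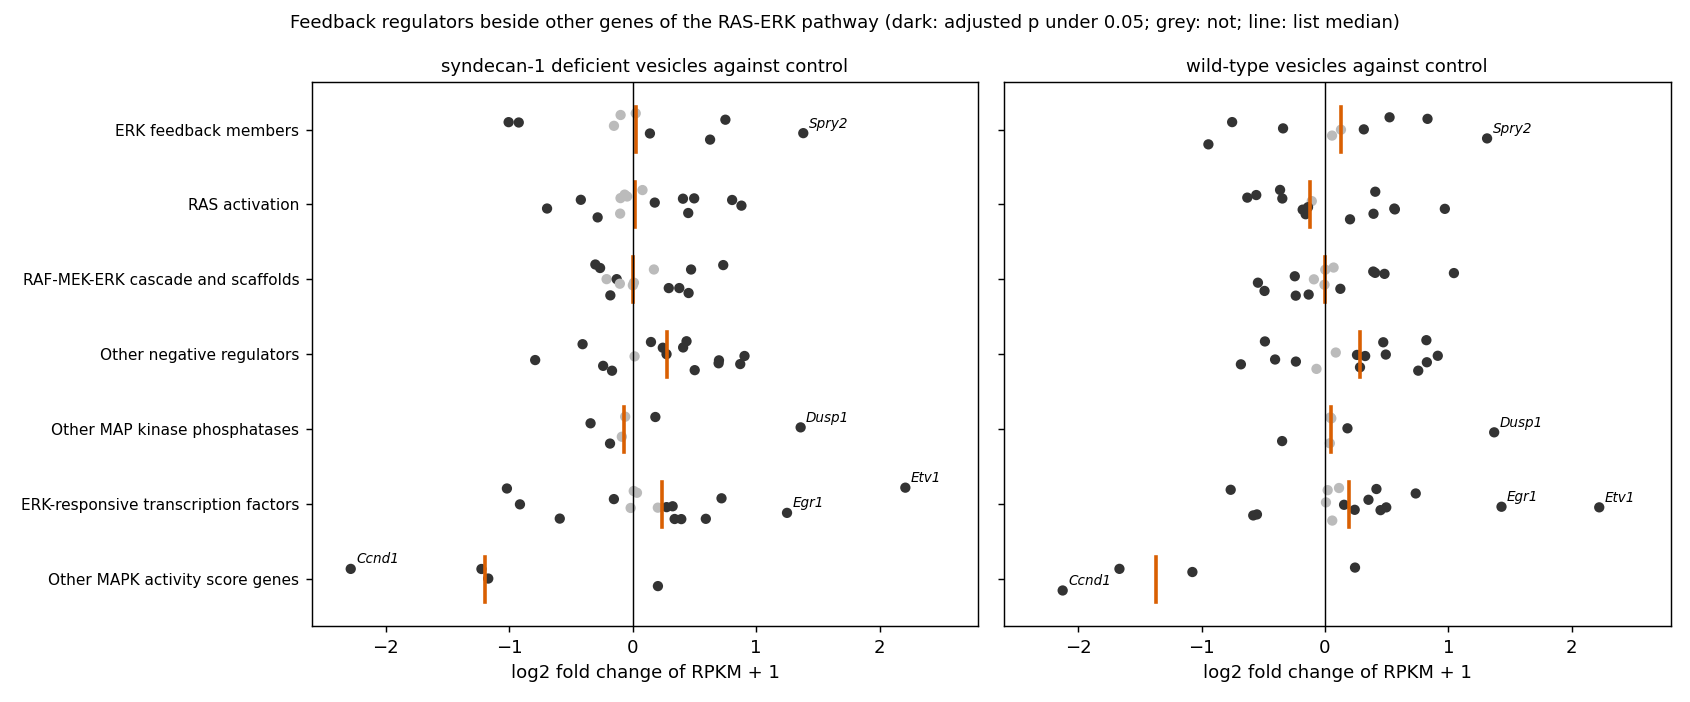
Log2 fold changes of RPKM + 1 (horizontal axis) for deficient vesicles against control and wild-type vesicles against control, with 1 point for each tested gene, grouped by list. The 9 tested feedback regulators spread on both sides of 0, with Spry2 highest, and the other score genes lie low except Epha4.

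Spry2, Spry4, Dusp4, Dusp6, Etv4 and Etv5 are part of a published score of MAP kinase pathway activity derived in human cancer, whose other genes are Ccnd1, Phlda1, Epha2 and Epha4. Of these 4, 3 were lower and 1 higher with each kind of vesicle. Ccnd1, which encodes cyclin D1, stood at 28.4 ± 1.1 RPKM with deficient vesicles and 31.9 ± 0.71 with wild-type vesicles, against 142 ± 2.1 in control (SD, n = 3 each). Phlda1 stood at 9.82 ± 0.99 and 7.03 ± 1.4, against 24.2 ± 1.2 RPKM, and the ephrin receptor gene Epha2 at 12.1 ± 0.61 and 12.97 ± 0.51, against 28.4 ± 1.7 RPKM. Epha4 rose to 19.1 ± 0.94 and 19.6 ± 0.39, against 16.4 ± 0.24 RPKM. Of the score genes that passed the filter, Spry2 and Epha4 were called higher, Ccnd1, Phlda1, Epha2, Dusp4 and Etv5 lower, and Dusp6 and Etv4 neither. Spry4 was under the filter and was lower with both kinds of vesicle in the fit without one. Between the vesicle groups Phlda1 was higher with deficient vesicles, by 0.44 ± 0.11 (limma adjusted p = 0.0323), and Ccnd1 lower, by -0.16 ± 0.041 (adjusted p = 0.0330).

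Of the 69 list genes 14 were called between deficient and wild-type vesicles, 9 higher and 5 lower, together 20.3%, against 18.4% of all tested genes. Grb2, a receptor adaptor, stood at 36.4 ± 1.5 RPKM with deficient vesicles and 30.8 ± 0.94 with wild-type vesicles, and Braf at 6.06 ± 0.15 and 5.05 ± 0.22 (SD, n = 3 each). Rasa2 and Pebp1, which restrain RAS and RAF, were higher with deficient vesicles by log2 differences of 0.22 ± 0.065 and 0.25 ± 0.076 (limma adjusted p = 0.0453 and 0.0481). Myc was lower, at 9.68 ± 0.33 and 12.8 ± 1.5 RPKM in the same order (log2 difference -0.36 ± 0.069, adjusted p = 0.0255), as were Lamtor3 (-0.31 ± 0.081), Srf (-0.21 ± 0.062) and Dusp10 (-0.23 ± 0.064). For Dusp7 the difference was -0.13 ± 0.051 (adjusted p = 0.0974). The 14 calls became 0 without wild-type replicate 1, 0 without wild-type replicate 2, 0 without deficient replicate 2, 0 without deficient replicate 3, 4 without any 1 of the controls and 22 without wild-type replicate 3.

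The genes most like 3 of the regulators across the 9 samples were sought among 7988 others with a mean of at least 5 RPKM, by Pearson's r on log2(RPKM + 1). The samples form a vesicle-treated and a control set, so a high r mostly restates that step. Nearest to Spry2 were Lpcat1, Tspan7 and Creg1 (r = 0.999 for each), and nearest to Etv5 were Arl4d, Smpd3 and Eif2s2 (r = 0.996 for each). Dusp6, which did not follow the step, had lower values, with Vcpkmt at r = 0.897 and Gtf2h4 and Ei24 at 0.831 and 0.830.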

How the data were processed

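RNA of 9 MLE-12 samples was sequenced from stranded TruSeq mRNA libraries, per the labels' protocols. The authors deposited 1 table of RPKM per gene and sample, per the file headers; alignment was with TopHat2 2.0.7 to GRCm38 (mm10), per the submitters' processing notes, and the read counter and annotation are not given in the sources used here. The columns taken as controls are headed with the cell line and a replicate number alone, so they were assigned by elimination; 0 columns were left unused. Genes were matched by identifier to GENCODE M21 on GRCm38 (21748 of 21950). Low RPKM values are multiples of the value of 1 read, which gave the library totals and, within 0.02 of a whole number, the reads behind each value. For Spry1, Spry2, Spry4, Dusp6 and Etv4 the annotated length did not give whole reads, so their reads rest on a shorter length that did. Counting error is only a part of the spread between samples. With limma (version 3.58.1, R 4.3.3) a model of 3 groups with a variance trend was fitted to log2(RPKM + 1) of 11125 genes, with no replicate block. The fit was tested on simulated data with independent noise in each sample and fewer changed genes than were called here against control. That simulation does not cover libraries that stand apart together, such as wild-type replicates 1 and 2. Alternatives were other pseudocounts, filters and scalings, a replicate block, fits to only 2 groups and leaving out each library. The regulators, lists and naming rule (all 10 regulators, the 2 genes of each list with the smallest p in each comparison, Ccnd1, Dusp1, Egr1 and Phlda1) were chosen with earlier results of these data known. Genes named beyond the rule (Spred3, Epha4, Mapk3, Errfi1, Lrig1, Rasal2, Fosl1, Ier3) were chosen after values were seen. Some genes that the rule names are not reported here.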

Additional observations from a re-analysis of the deposited data

Results flagged for a closer look

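In the limma test of deficient against wild-type vesicles 3 of the 9 tested regulators were called, where 18.4% of all tested genes were called. The log2 difference was 0.23 for Spred1, -0.20 for Spry1 and -0.18 for Spred2, with adjusted p of 0.0416, 0.0498 and 0.0474. Spred1 was higher with deficient vesicles, at 26.0 to 29.8 RPKM against 22.6 to 26.1 with wild-type vesicles. Spry1 was lower, at 11.4 to 12.9 against 13.1 to 15.2 RPKM, and Spred2 was lower, at 8.45 to 9.26 against 9.31 to 10.5 RPKM. The call held in 7 of 18 alternatives for Spred1, 4 for Spry1 and 5 for Spred2, and none of the 3 was called without any 1 of the controls, without wild-type replicate 1 or without wild-type replicate 2.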

How the results depend on the processing

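Against control, the directions and calls of Spry1, Spry2, Spred1, Dusp4 and Etv5 held under every alternative that tested them, and the number of called regulators ran from 5 to 8 with deficient vesicles and from 5 to 9 with wild-type vesicles. With deficient vesicles, quantile normalization turned the Spred2 difference to -0.0497 and the Etv4 difference to -0.22; the cause was not tested. Between deficient and wild-type vesicles the 3 called regulators became 5 under quantile normalization, 1 under scaling without mitochondrial genes, 1 with a replicate block, and 0 without a filter, in a fit to only the 2 groups and without wild-type replicates 1 and 2, a choice made after seeing the data. Leaving out 1 library gave 0 to 3. The 14 called genes of the pathway lists became 0 in the fits without a filter, to only the 2 groups and without those wild-type libraries, and 0 to 22 on leaving out 1 library, with the 22 reached without wild-type replicate 3. Where limma gave 0 calls, 3 to 6 regulators and 6 to 22 list genes had an unadjusted p under 0.05. Over all genes that comparison called 2042, against 1 without a filter, 0 in the fit to only the 2 groups, 0 without wild-type replicate 1, 0 without wild-type replicate 2, 0 without deficient replicate 2, 2 without deficient replicate 3, 704 to 909 without 1 of the controls, 0 without both wild-type replicates 1 and 2 (1074 at an unadjusted p under 0.05) and 4686 without wild-type replicate 3. Deviations of same-numbered samples from their group means correlated at r between -0.20 and 0.28, and those of differently numbered samples at -0.24 to 0.22. With 3 samples a group, these values cannot decide whether the numbers pair the samples. The replicate block ended the calls of Spry1 and Spred2 there and of Spred2 with deficient vesicles against control, and no other call of the regulators. Depth limits Spry4 and Dusp5, with 36 to 118 reads a value.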
